A study of Mus musculus with 6 samples.

Results

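Border-associated macrophages were studied as the 311 nuclei, of 60724 kept and 63383 barcodes in all, that carried the coagulation factor transcript F13a1 together with macrophage transcripts. They were chosen by counts of unique molecular identifiers (UMIs): at least 3 of F13a1, at least 2 of Mrc1, Csf1r and Inpp5d combined, and at most 1 of Spp1 and Gpnmb combined, in barcodes with at least 300 genes and at most 1% of UMIs from mitochondrial genes. The nuclei came from perfused C57BL/6 S-56 mice that had been injected at postnatal day 7 into the right lateral ventricle with 5 µl of lysophosphatidic acid (LPA 18:1, the LPA-injected group) or of the 0.01% bovine serum albumin carrier alone (the vehicle-injected group). Brains without olfactory bulbs and cerebellum were taken at postnatal day 15 and sorted for nuclei lacking the neuronal protein NeuN, so that any leptomeninges, vessels and choroid plexus left on the tissue were sampled with the parenchyma, and nuclei were profiled by droplet 3′ single-nucleus RNA sequencing (snRNA-seq). Each group had 3 libraries, labelled replicates 1 to 3. The LPA concentration used for these mice is not given in the sources used here, and the study plots each library as 1 mouse, which the labels do not state. By Xist and Y-linked transcripts over all nuclei, LPA 1, vehicle 1 and vehicle 3 read as male and LPA 2, LPA 3 and vehicle 2 as female, so each group held both sexes.

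Border-associated macrophages are the resident macrophages of the meninges, the perivascular spaces and the choroid plexus. They share a yolk-sac origin and dependence on the receptor Csf1r with microglia but lie outside the parenchyma, and are known for scavenger and mannose receptors that clear proteins, lipids and debris from the cerebrospinal and perivascular fluid. Microglia, by contrast, lie within the tissue and are marked by Siglech, Tmem119, P2ry12 and the transcription factor Sall1. F13a1 encodes the A subunit of coagulation factor XIII, Mrc1 the mannose receptor CD206, and Lyve1 a hyaluronan receptor shared with lymphatic endothelium.

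The chosen nuclei numbered 49, 39 and 26 in LPA 1, 2 and 3 and 48, 98 and 51 in vehicle 1, 2 and 3. Vehicle 2 therefore held about as many as the other vehicle-injected libraries together, and LPA 3 held the fewest. Their summed depth ran from 121675 UMIs in LPA 3 to 637627 in vehicle 2, against 48852970 to 65688644 UMIs for whole libraries, so LPA 3 was the least precise library. No barcode among the members was shared between libraries, although any pair of libraries shared 268 to 303 barcode sequences overall. F13a1 ranged from 3 to 74 UMIs per member with a median of 8, and Mrc1 from 0 to 49 with a median of 10. The median F13a1 count per member was 7 to 9 in each of the 6 libraries, and Mrc1 was unseen in only 3 of the 311 members, whereas Csf1r was unseen in 71 and Inpp5d in 82. Just inside the limit, 33 members with exactly 3 F13a1 UMIs had a median of 5 Mrc1 UMIs. Just outside it, 34 nuclei with 2 F13a1 UMIs had a median of 4.5. A further 9 nuclei passed on F13a1 but carried under 2 UMIs of the macrophage transcripts, and 9 were left out for Spp1 and Gpnmb.

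The members were of uneven depth, and many were scored as mixtures of nuclei by Scrublet, run with an expected doublet rate of 0.08 for libraries that targeted 10000 nuclei. Other rates were not tried. UMIs per member ran from 588 to 70567 with a median of 3980. The tool, which scores each barcode against simulated mixtures of 2 nuclei, called 125 of the 311 members (40.2%) doublets, against 44.2% of the microglia described below and 17.9% of all nuclei kept. Called members had a median of 8570 UMIs and the other 186 a median of 2338 UMIs, and the called ones supplied 72.0% of all member UMIs. The median F13a1 count was 8 UMIs in called and 8.5 in other members, and the median Mrc1 count 9 and 10. Scaled to counts per 1000000 UMIs (CPM, with edgeR's TMM scaling, set anew for each comparison, so that a gene's CPM differs slightly between comparisons), F13a1 averaged 1689.6 ± 452 (s.d., n = 6 libraries) over all members and 4474 ± 1082 over the members that Scrublet did not call. Levels below are for all 311 members, and the main results are also given with called nuclei left out.

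Promoters of genes that carried the choice and the contrast are shown first. F13a1 and Mrc1 were part of the rule, so their joint high level is not a result, and Cd163, outside the rule, is described below. RefSeq windows of 250 bases before to 50 bases after the start site (GRCm38.p6, the build of the files) were looked up for 15 genes and found for 10. The windows of F13a1 (chr13:37050195-37050494, minus strand, the first of 2 listed), Mrc1 (chr2:14229164-14229463, plus strand) and Cd163 (chr6:124304401-124304700, plus strand) are printed 5′ to 3′ along the gene. Capitals mark GAGGAAG or its reverse complement CTTCCTC, letters typical of sites of PU.1, the ETS factor of the myeloid lineage.
F13a1: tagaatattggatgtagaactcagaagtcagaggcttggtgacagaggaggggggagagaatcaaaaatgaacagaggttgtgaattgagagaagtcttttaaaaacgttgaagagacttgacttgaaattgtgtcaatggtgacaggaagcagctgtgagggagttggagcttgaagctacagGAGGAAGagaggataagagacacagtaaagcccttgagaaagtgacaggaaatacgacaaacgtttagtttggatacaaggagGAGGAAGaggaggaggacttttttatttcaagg
Mrc1: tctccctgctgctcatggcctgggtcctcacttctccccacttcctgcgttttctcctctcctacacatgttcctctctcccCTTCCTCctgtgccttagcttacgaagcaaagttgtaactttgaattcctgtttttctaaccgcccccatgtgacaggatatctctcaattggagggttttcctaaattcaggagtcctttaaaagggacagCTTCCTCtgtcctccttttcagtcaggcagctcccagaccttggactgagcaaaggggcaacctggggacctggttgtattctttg
Cd163: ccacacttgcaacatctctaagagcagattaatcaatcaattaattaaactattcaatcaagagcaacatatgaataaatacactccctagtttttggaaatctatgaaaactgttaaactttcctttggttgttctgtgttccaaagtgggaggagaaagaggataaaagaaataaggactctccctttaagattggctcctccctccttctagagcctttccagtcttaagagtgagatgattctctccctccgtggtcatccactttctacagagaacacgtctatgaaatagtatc
F13a1 and Mrc1 held 2 matches each and Cd163 none. Neither TGCTGA, letters recognised by MAF factors, nor TGGGAA, the core recognised by RBPJ, occurred on either strand of the 3 windows, so no matches overlapped. Of all 32851 windows in the table, 13.6% held the PU.1 letters, 19.5% the MAF letters and 25.6% the RBPJ core. Over the 9350 windows of genes tested against microglia the shares were 13.6%, 15.4% and 22.1%. Among genes called higher in border macrophages than in microglia they were 14.2%, 24.1% and 25.3% of 162 windows, and among genes called lower 23.7%, 19.6% and 20.6% of 97. These matches describe letters in a short window and not bound sites.

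The first question was how border macrophages differed from microglia of the same brains. Microglia were taken as 1320 nuclei (832 LPA-injected, 488 vehicle-injected) with at least 2 UMIs of Siglech, none of F13a1 and the same limits on Mrc1, Csf1r and Inpp5d and on Spp1 and Gpnmb, at a median of 3491 UMIs per nucleus. UMIs were summed per library and cell type and tested with edgeR's quasi-likelihood test, with the library as a block. The test covered 8943 genes, of which 165 were higher in border macrophages (1.85%) and 103 lower (1.15%) where a call needed a Benjamini-Hochberg adjusted p under 0.05 and a 2-fold change (log2 of 1 or more). The Notch effector Rbpj and the endocytic adaptor Dab2 were higher, and the microglial genes Selplg and Sall1 were lower. Without Scrublet-called nuclei fewer genes were deep enough to test (3560), of which 157 were higher and 189 lower. Of the 268 genes called over all members, 176 could be tested that way. All 176 kept their sign, 167 were called again and 143 had the larger fold change with called nuclei left out. Fits on the LPA-injected libraries alone and the vehicle-injected libraries alone both tested 264 of the 268. All 264 kept their sign and 168 were called in both. The 268 genes were called on these same libraries, and the smaller fits, with or without Scrublet-called nuclei, use parts of the same sums. Agreement in sign was thus nearly fixed in advance, and these counts are a description.

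**Figure D1:**
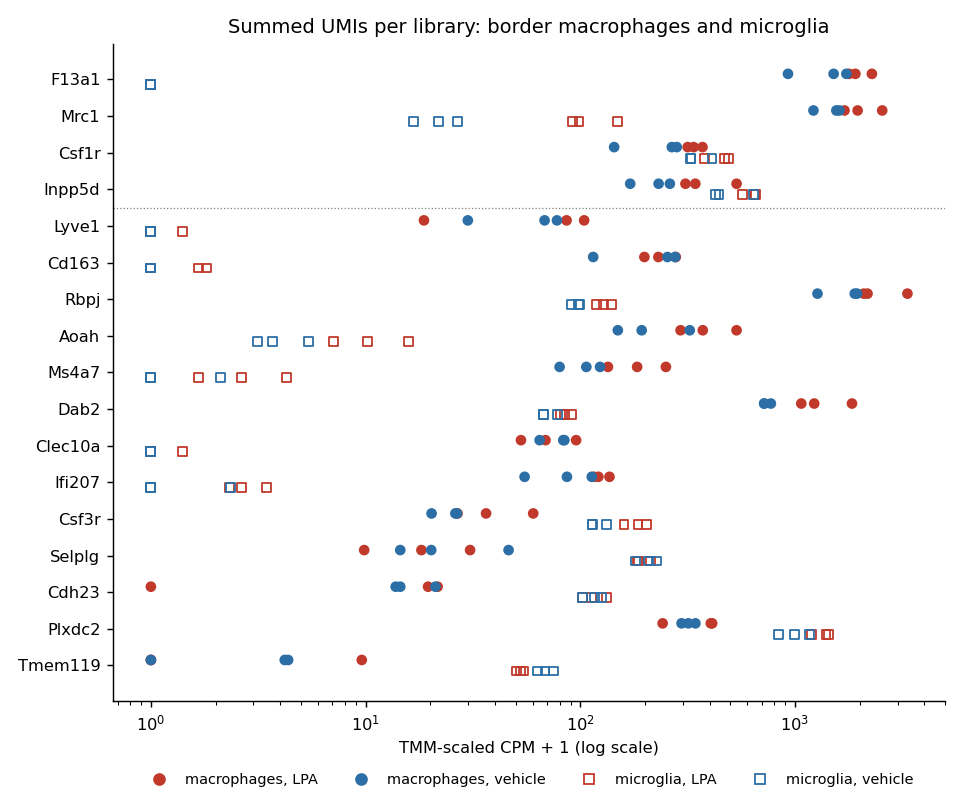
Level of named genes in border macrophages (filled circles) and microglia (open squares), 1 point per library, as TMM-scaled CPM plus 1 on a log axis; the genes above the dotted line chose the nuclei. Cd163 lay between 114 and 277 CPM in macrophages and at or below 0.820 CPM in microglia, whereas Selplg lay between 8.85 and 45.3 CPM in macrophages and at or above 179 CPM in microglia.

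The genes that chose the nuclei are given as a description only. F13a1 was at 1908, 1783 and 2278 CPM in the LPA-injected libraries and 926, 1732 and 1511 CPM in the vehicle-injected libraries, and no F13a1 UMI was counted in the microglia. Mrc1 stood at 1955, 1698 and 2544 CPM in the LPA-injected libraries and 1217, 1608 and 1556 CPM in the vehicle-injected libraries. Microglia held 15.7 to 148 CPM of Mrc1, with the LPA-injected libraries above the vehicle-injected ones. Csf1r, the receptor both cell types need, averaged 285 ± 79.2 CPM in macrophages and 399 ± 69.3 CPM in microglia, and the lipid phosphatase gene Inpp5d 307 ± 126 and 562 ± 104 CPM. Siglech was at 37.2 ± 20.6 CPM in macrophages against 469 ± 93.1 CPM in microglia, and 41 of the 311 members held a Siglech UMI.

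Lyve1, the marker that was not part of the choice, was counted with 120 of its 174 UMIs over all nuclei kept in the 311 border macrophages (69.0%). It was at 17.7, 85.3 and 103 CPM in the LPA-injected libraries and 28.9, 67.1 and 76.8 CPM in the vehicle-injected libraries, with LPA 1 and vehicle 1 low and the groups overlapping. Microglia held 1 Lyve1 UMI against 120 in the macrophages, a ratio of summed UMI shares of 490.3 with an exact 95% counting interval that starts at 86.3. Such intervals, here and below, pool UMIs over the 6 libraries and leave out the spread between libraries. Lyve1, Cd163, Clec10a, Ms4a7 and Ifi207 passed the filter on low counts through their macrophage counts, so they had to differ and are described by their counts. Cd163, the hemoglobin-haptoglobin scavenger receptor (chr6:124304656-124330527), was at 277, 229.8 and 198 CPM in the LPA-injected libraries and 114, 253 and 275 CPM in the vehicle-injected libraries. Only 2 Cd163 UMIs were counted in microglia, a ratio of 970.4 with an interval starting at 267. Clec10a, a galactose-type lectin, was counted with 156 UMIs in macrophages against 1 in microglia, a ratio of 637 with a counting interval of 113 to 25336.

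Rbpj, the DNA-binding effector of Notch signalling (chr5:53466152-53657362), was higher in border macrophages in every library. It was at 2173, 2087 and 3335 CPM in the LPA-injected libraries and 1271, 1895 and 1943 CPM in the vehicle-injected libraries. Every macrophage value lay above the highest microglial value of 139 CPM (log2 fold change 4.21 ± 0.15 s.e., n = 6 libraries, edgeR adjusted p = 2.04e-13), and the log2 fold change was 4.78 without Scrublet-called nuclei. Aoah, which encodes the enzyme that deacylates lipopolysaccharide, was at 292, 371 and 533 CPM in the LPA-injected libraries and 148, 322 and 192 CPM in the vehicle-injected libraries. Microglia held 6.56 ± 4.77 CPM (n = 6 libraries). Aoah too passed the filter on low counts through its macrophage counts, so it had to differ and its levels are a description. Dab2, an endocytic adaptor for lipoprotein receptors, was at 1227, 1068 and 1839.5 CPM in the LPA-injected libraries and 717, 770.4 and 717 CPM in the vehicle-injected libraries. Its 3 LPA-injected values lay above its 3 vehicle-injected values, and all 6 above the 77.1 ± 9.23 CPM of microglia (log2 fold change 3.71 ± 0.16 s.e., n = 6 libraries, edgeR adjusted p = 2.88e-12). Ms4a7, a tetraspan protein of macrophages, was counted with 274 UMIs in macrophages against 10 in microglia, a ratio of 112 with a counting interval of 59.96 to 236. The interferon-inducible Ifi207 was counted with 205 UMIs in macrophages against 12 in microglia, a ratio of 69.8 with a counting interval of 39.1 to 137. Arhgap15, a Rac regulator, was higher in border macrophages (log2 fold change 4.09 ± 0.17 s.e., n = 6 libraries, edgeR adjusted p = 2.84e-12). The predicted transcripts Gm30489 and F630028O10Rik, also among the 10 higher genes of lowest p, were counted with 515 UMIs in macrophages against 3 in microglia and 295 UMIs in macrophages against 20 in microglia, and they too passed the filter through their macrophage counts.

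Among the 10 lower genes of lowest p were surface receptors and adhesion molecules of microglia. Tmem119, a microglial surface protein, was counted with 4 UMIs in the macrophages and 511 in microglia, a ratio of 0.0320 with a counting interval of 0.00868 to 0.0824. It passed the filter through its microglial counts, so it had to differ and is described by its counts. Selplg, the ligand of P-selectin, was at 8.85, 29.7 and 17.2 CPM in the LPA-injected libraries and 13.5, 45.3 and 19.2 CPM in the vehicle-injected libraries. Microglia held 179 to 225 CPM (log2 fold change -3.04 ± 0.23 s.e., n = 6 libraries, edgeR adjusted p = 1.07e-08), and the log2 fold change was -4.31 without Scrublet-called nuclei. By the same test, the granulocyte colony-stimulating factor receptor Csf3r fell by 2.21 ± 0.16, the cadherin Cdh23 by 2.81 ± 0.21, the Nogo receptor homologue Rtn4rl1 by 2.66 ± 0.21 and Plxdc2 by 1.76 ± 0.14 on the log2 scale. These 4 genes were lower in border macrophages than in microglia in all 6 libraries, with edgeR adjusted p of at most 2.87e-08. The predicted transcripts Gm2629 and 8030442B05Rik were also among the 10.

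Gene lists were read as counts beside the median over all genes tested, which was -0.02 (log2). Of 20 core genes of border macrophages, 14 passed the filter on low counts and all 14 of these were called higher, with a median log2 fold change of 3.92; genes that passed through their macrophage counts alone had to differ, so the count is a description. Besides those above they held Stab1, a clearance receptor, at 917 ± 331 against 119 ± 61.6 CPM, Colec12, a collectin, at 371 ± 102 against 70.7 ± 19.9 CPM, the platelet factor gene Pf4, Cbr2, Cd36, Tgfbi, Itga4, Gas6, Ms4a6c and the transcription factor Maf. Folr2, Siglec1, Timd4, Cd209b, Cd209f and Ccl24 were under the filter. Of 20 microglial genes 19 were tested and 13 called lower, none higher, with a median of -1.84 (-2.29 over the 18 tested without Scrublet-called nuclei). This count is a description too, since genes such as Tmem119 passed through their microglial counts. Sall1 fell by 2.31 ± 0.21, Cx3cr1, the fractalkine receptor, by 1.84 ± 0.21, and Slc2a5, Olfml3, Trem2, Tgfbr1, Sparc, Gpr34 and Nav2 were also called lower. The purinergic receptor gene P2ry12, named after its values were seen, did not pass the size limit, at 132 ± 51.3 CPM in macrophages and 237 ± 43.0 CPM in microglia (log2 fold change -0.88 ± 0.14 s.e., n = 6 libraries, edgeR adjusted p = 2.95e-04).

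Genes common to the myeloid lineage were mostly not called. Of 18 pan-myeloid genes 17 were tested, 1 was called higher (Arhgap15) and 1 lower (Apbb1ip, a Rap1 effector of integrin activation), with a median of 0.11. Without Scrublet-called nuclei 1 of 15 tested was higher and 4 were lower, and the median was -0.18. Lyn, a Src-family kinase, averaged 372 ± 139 and 358 ± 78.0 CPM, and Mertk, a phagocytic receptor kinase, 515 ± 46.2 and 748 ± 129.6 CPM, neither being called. Among transcription factors, 4 of 18 tested were higher (Rbpj, Maf at 1.17 ± 0.12 log2, Etv1 at 1.22 ± 0.14 and Tfec, a relative of Mitf, at 2.77 ± 0.36) and 2 lower (Sall1 and Sall3, zinc-finger factors). Mef2c, Mef2a, Mitf, Zeb2 and Runx1 did not pass, with log2 fold changes of 0.14, -0.31, 0.44, 0.50 and 0.91.

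Receptors for uptake held many genes with few UMIs in microglia, which passed the filter through their macrophage counts and so had to come out higher. Of 12 scavenger and endocytic genes tested (of 20), 8 were higher and 0 lower, with a median of 2.71, and without Scrublet-called nuclei 5 of 8 tested were higher and 1 lower. Besides Cd163, Dab2, Clec10a, Stab1 and Colec12, they were Msr1, the class A scavenger receptor (135 UMIs in macrophages against 8 in microglia), Cd36, the fatty acid and oxidised lipoprotein receptor (79 UMIs in macrophages against 6 in microglia), and Ap2a2, a clathrin adaptor subunit (1.36 ± 0.12 log2). Rab31, an endosomal GTPase, was at 312 ± 73.9 and 319 ± 33.0 CPM and was not called. Of 10 complement and Fc receptor genes tested, 4 were higher and 1 lower, with a median of 0.53. C5ar1, given below, passed the filter through its macrophage counts and had to come out higher, so the count is a description. Without Scrublet-called nuclei 2 of 7 were higher and 1 lower, with a median of 0.08. The inhibitory Fc receptor Fcgr2b was at 73.3 to 109 CPM over the libraries against 7.70 to 19.3 CPM, the C5a receptor C5ar1 at 39.5 ± 10.6 against 3.21 ± 1.65 CPM, and the complement gene C4b at 1.56 ± 0.30 on the log2 scale. Over all members the integrin Itgam was the lower gene (-1.67 ± 0.24).

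In iron and heme handling, 3 of 9 tested were higher, namely Cd163, the iron exporter ferroportin Slc40a1 at 109 ± 54.0 against 34.1 ± 3.86 CPM, and the biliverdin reductase Blvra (1.37 ± 0.27 log2). Cd163 had to differ, as stated above. The ferritin genes Fth1 and Ftl1 did not pass, at -0.01 and 0.35. Of 21 genes known to rise in activated microglia, 15 were tested and 5 were higher in border macrophages, among them Apoe, the lipid carrier, at 1994 ± 329 against 759 ± 71.7 CPM, the growth factor Igf1 at 113 ± 21.0 against 22.6 ± 9.14 CPM, the motor protein Myo5a (1.77 ± 0.12 log2), the inhibitory receptor Lilrb4a and the protease Ctsb. Trem2, a lipid-sensing receptor, and the protease Ctsd were lower. The list's median was 0.10 over all members and -0.17 without Scrublet-called nuclei, where 3 of 11 tested were higher and 3 lower. Among lysosome genes Ctsc and Ctsb were higher and 2 genes including Ctsd lower, of 19 tested (median 0.10). Of the interferon, glucocorticoid and growth factor lists, 1 of 5, 1 of 12 and 2 of 8 tested genes were called higher (Parp14, Tsc22d3, and Igf1 with Gas6), and the growth factor Pdgfb was lower.

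None of the 6 tested genes of LPA receptors and LPA metabolism (of 11 listed) was called between border macrophages and microglia. Enpp2, which encodes autotaxin, the enzyme that makes LPA, was at 419 ± 97.6 and 428 ± 73.6 CPM, and the receptor gene Lpar1 at 102 ± 33.6 and 87.6 ± 13.3 CPM. In the list sums, Enpp2 in border macrophages went from 439 to 300 CPM when Scrublet-called nuclei were left out. The whole LPA list went from 1009 to 759 CPM, while the core list rose from 3972 to 10493 CPM. The part of transcripts from other cells in the levels of LPA genes was not tested. The receptor gene Lpar6 was at 23.3 ± 19.0 against 36.2 ± 1.81 CPM (edgeR adjusted p = 0.0788). Of 15 cell division genes 2 were tested and neither was called.

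Markers of the other cell types that the NeuN-negative sort could hold were summed in the members. Lists of other blood cells were low, at mean sums of 152 CPM for monocytes, 33.9 for neutrophils, 139 for dendritic cells, 110.0 for T and NK cells, 121 for B cells and 25.2 for mast cells. Erythroid genes, all 5 detected, summed to 43.4 CPM. 3 of 9 monocyte genes including Ly6c2 and Cd177, 7 of 9 neutrophil genes including S100a8 and S100a9, 5 of 6 mast cell genes including Cpa3, 4 of 8 dendritic cell genes including Xcr1 and Clec9a, 7 of 12 T and NK cell genes including Cd3d, Cd3g and Trac, and Cd79a and Ms4a1 of B cells had no UMI in any member. The most abundant of the genes that were counted were Vcan among monocyte genes, Bcl11b among T and NK cell genes, Ebf1 among B cell genes, Wdfy4 among dendritic cell genes, Kit among mast cell genes and Hbb-bs among erythroid genes. Csf3r, shared with the microglial list, led the neutrophil list, and Zbtb46 of the dendritic cell list was called higher in border macrophages than in microglia (1.14 ± 0.24 log2). Transcripts of neighbouring brain cells were far more abundant. Oligodendrocyte genes summed to 6494 ± 3796 CPM in LPA-injected and 7156 ± 354 CPM in vehicle-injected libraries (all 8 detected, Mbp the most abundant, LPA 3 the highest library), neuronal genes to 5806 ± 1879.9 CPM in LPA-injected and 7949.7 ± 767 CPM in vehicle-injected libraries (Nrxn3 the most abundant) and astrocyte genes to 3590.1 ± 1702 CPM in LPA-injected and 5308 ± 471 CPM in vehicle-injected libraries (Gpc5). In the microglia the same lists averaged 5724, 6826 and 4871 CPM. None of these 3 lists held a gene called between border macrophages and microglia. Meningeal fibroblast genes, 12 of 12 detected with Foxp2 the most abundant, summed to 589, 509.7 and 699 CPM in the LPA-injected libraries and 994, 877 and 1077 CPM in the vehicle-injected libraries. All 3 LPA-injected values lay below the vehicle-injected ones, as they did in microglia, which held 527, 664 and 529 CPM in the LPA-injected libraries and 1257, 992 and 1152 CPM in the vehicle-injected libraries. Without Scrublet-called nuclei the border macrophages of LPA 3 held 1817 CPM and the groups overlapped.

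**Figure D2:**
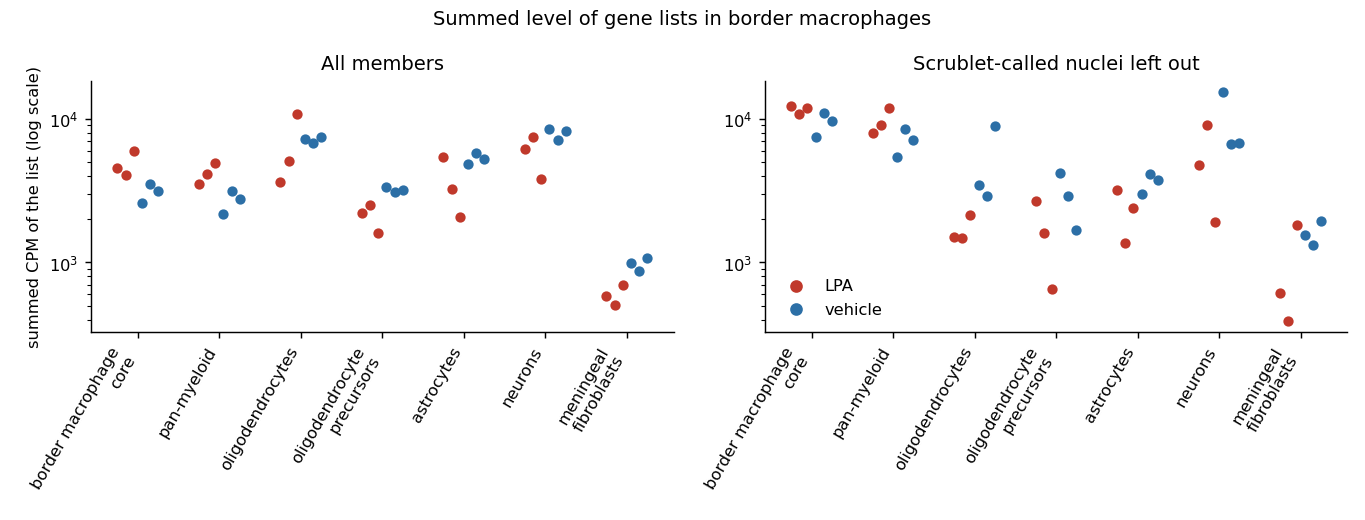
Summed CPM of gene lists in border macrophages on a log axis, 1 point per library, over all members (left) and with Scrublet-called nuclei left out (right). Over all members, the core and pan-myeloid lists lay higher and meningeal fibroblast genes lower in the 3 LPA-injected libraries than in the 3 vehicle-injected ones; oligodendrocyte genes were at 1702 ± 368 CPM in LPA-injected and 5088 ± 3319 CPM in vehicle-injected libraries with called nuclei left out.

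**Figure D3:**
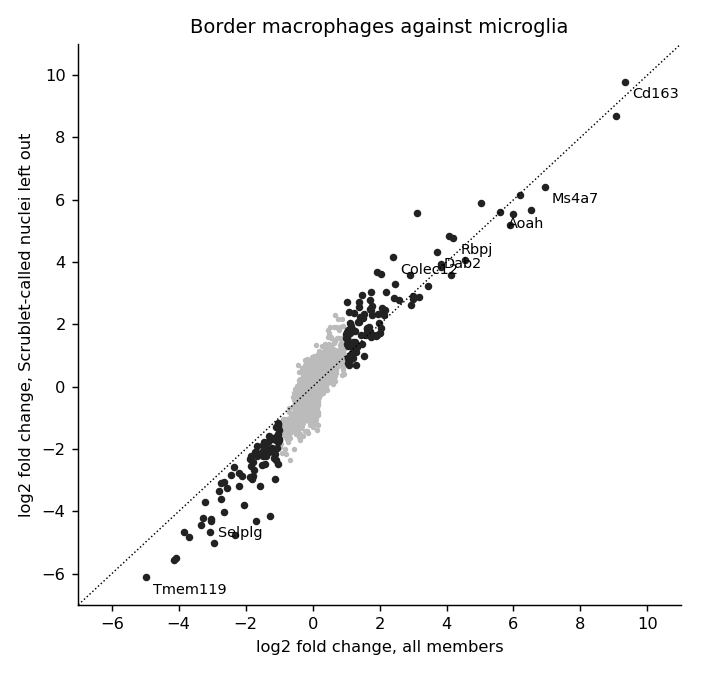
Log2 fold change of border macrophages against microglia for each gene tested both over all members (horizontal axis) and without Scrublet-called nuclei (vertical axis); black points are genes called over all members and the dotted line marks equal values. All 176 black points kept their sign and 143 lay further from 0 on the vertical axis. The black points were called on the horizontal axis and both axes share nuclei, so the shared sign is a description.

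Markers outside the rule were counted nucleus by nucleus. They are sparse (Lyve1 had 120 UMIs over 311 members), so a nucleus without a UMI was not read as lacking the transcript, and whether the members differ among themselves was not tested. Lyve1 was seen in 85 of 311 members (27.3%) and in 0.0758% of microglia, at median depths of 3980 and 3491 UMIs. Thinned to 2000 UMIs per nucleus, with 68 shallower members left out, the shares were 15.2% and 0%. Cd163 was seen in 54.3% of members and 0.152% of microglia, Stab1 in 95.2% and 47.0%, Rbpj in 98.4% and 39.4%, and Pf4 in 21.2% and 0.227%. As a background, 52568 nuclei kept with no UMI of F13a1, Mrc1, Csf1r or Inpp5d, at a median depth of 4324 UMIs, were counted the same way (added after the data were seen). They held Lyve1 in 0.0704%, Cd163 in 0.242%, Stab1 in 2.13%, Pf4 in 0.0685% and Rbpj in 29.7%. Of the microglial genes, Cx3cr1 was seen in 31.8% of members, 85.9% of microglia and 8.36% of background nuclei, and P2ry12 in 45.7%, 71.9% and 8.49%. Thinned to 2000 UMIs, Cx3cr1 stood at 19.3% of members against 3.72% of background nuclei and P2ry12 at 27.6% against 3.68%. Tmem119 was seen in 1.29% of members against 0.814% of background nuclei, and Sall1, in 8.68% of members against 8.17%, was below the background after thinning (2.47% against 3.61%). Both shares in members were read as background. Cd163 was seen in 54.1% of the 85 members with Lyve1 and in 54.4% of the 226 without. Members with Lyve1 had a median of 11 F13a1 and 12 Mrc1 UMIs, and those without had 7 and 9, at median depths of 3841 and 4044 UMIs.

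MHC class II genes, which present antigen and mark another kind of border macrophage in adult tissue, were rare here. At least 1 UMI of Cd74, H2-Aa, H2-Ab1 or H2-Eb1 was seen in 13 of 311 members (4.18%) in 1.67% of microglia and in 0.517% of background nuclei, and after thinning in 2.06%, 0.554% and 0.207%. Both Lyve1 and a class II UMI were seen in 3 members. H2-Eb1 had no UMI, and Cd74 averaged 9.95 ± 11.2 CPM. Cd86, a costimulatory ligand, was the 1 tested gene of the antigen presentation list and was higher in border macrophages than in microglia (log2 fold change 1.29 ± 0.16 s.e., n = 6 libraries, edgeR adjusted p = 1.00e-05).

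The LPA-injected libraries also held immune nuclei with at least 2 UMIs of Spp1 and Gpnmb and no F13a1, numbering 96, 160 and 138 in LPA 1, 2 and 3 against 3, 5 and 0 in vehicle 1, 2 and 3, with a median of 2958 UMIs per nucleus. The border macrophages of the 3 LPA-injected libraries were set against these, a comparison added after the data were seen. With the same test and limits, 9006 genes were tested and 115 were higher in border macrophages (1.28%) and 83 lower (0.922%). Without LPA 2 the 198 calls became 101. Cd163 was at 282, 233 and 201 CPM in the border macrophages of LPA 1, 2 and 3 and had no UMI in the Spp1 and Gpnmb nuclei. Rbpj was at 2211, 2114 and 3388 CPM against 177, 190.2 and 191 CPM (3.75 ± 0.26 s.e., n = 3 libraries, edgeR adjusted p = 1.71e-05). Of 15 core genes tested 11 were higher, but Stab1 (0.97 ± 0.24 s.e., n = 3 libraries, edgeR adjusted p = 0.0690) was not, and Ms4a7 (1.29 ± 0.24 s.e., n = 3 libraries, edgeR adjusted p = 0.0146) was called over all members but not without Scrublet-called nuclei (edgeR adjusted p = 0.0634). With those nuclei left out 4 of 11 tested core genes were called higher. Core genes such as Cd163 passed the filter on low counts through their border macrophage counts and had to differ, so these counts are a description. Microglial activation genes lay on the other side, with 10 of 19 tested lower in border macrophages (median -1.26, against -0.000913 over all genes). They are known to be high together with Spp1 and Gpnmb, on which the compared nuclei were chosen. Those with no UMI in the border macrophages, named below, passed the filter through the compared nuclei. These had to be lower, so the count is a description. Plek, a protein kinase C substrate, and Ctsd, a lysosomal protease, were lower at -2.27 ± 0.24 s.e., n = 3 libraries, edgeR adjusted p = 3.30e-04, and -2.13 ± 0.24 s.e., n = 3 libraries, edgeR adjusted p = 4.16e-04, while Atp6v0d2, a proton pump subunit, and Itgax, an integrin, had no UMI in the border macrophages of these libraries and 190.2, 244 and 176 and 52.2, 53.5 and 69.1 CPM in the other nuclei. Apoe, high in both, was not called (0.36 ± 0.23 s.e., n = 3 libraries, edgeR adjusted p = 0.694).

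The second question was whether border macrophages differed between LPA- and vehicle-injected brains, first in number. The share of border macrophages among all nuclei kept was 0.575%, 0.380% and 0.286% in the LPA-injected libraries and 0.592%, 0.790% and 0.414% in the vehicle-injected libraries. The groups overlapped, with means of 0.413 ± 0.147% and 0.599 ± 0.188% (s.d., n = 3; two-sided exact permutation test, p = 0.2, where 0.1 is the smallest p that 3 against 3 allow). Exact 95% binomial intervals, which cover counting error only, ran from 0.187 to 0.418% in LPA 3, the lowest, and from 0.642 to 0.962% in vehicle 2, the highest. Thinned to 2000 UMIs per nucleus, the means were 0.301% and 0.308%. There the F13a1 limit was lowered to 2 UMIs and nuclei with under 2000 UMIs were left out. The rule and the nuclei thus changed along with the depth, so this is not the same share at equal depth. A difference in this share was not detectable with 3 libraries a group.

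Among immune nuclei, those kept with at least 2 UMIs of Mrc1, Csf1r and Inpp5d, the share of border macrophages was 5.36%, 3.78% and 3.32% in the LPA-injected libraries and 13.2%, 10.2% and 14.0% in the vehicle-injected libraries. The groups did not overlap, with means of 4.15 ± 1.06% and 12.5 ± 2.00% (s.d., n = 3; exact permutation p = 0.1, the smallest possible). The denominator moved with it: immune nuclei numbered 915, 1031 and 782 in the LPA-injected and 365, 961 and 364 in the vehicle-injected libraries, and microglia 338, 282 and 212 against 106, 289 and 93. There were 6.90 to 8.15 microglia per border macrophage in the LPA-injected libraries and 1.82 to 2.95 in the vehicle-injected ones. Fewer border macrophages and more of the other immune nuclei cannot be told apart from a share of immune nuclei, and cells per brain were not counted.

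**Figure D4:**
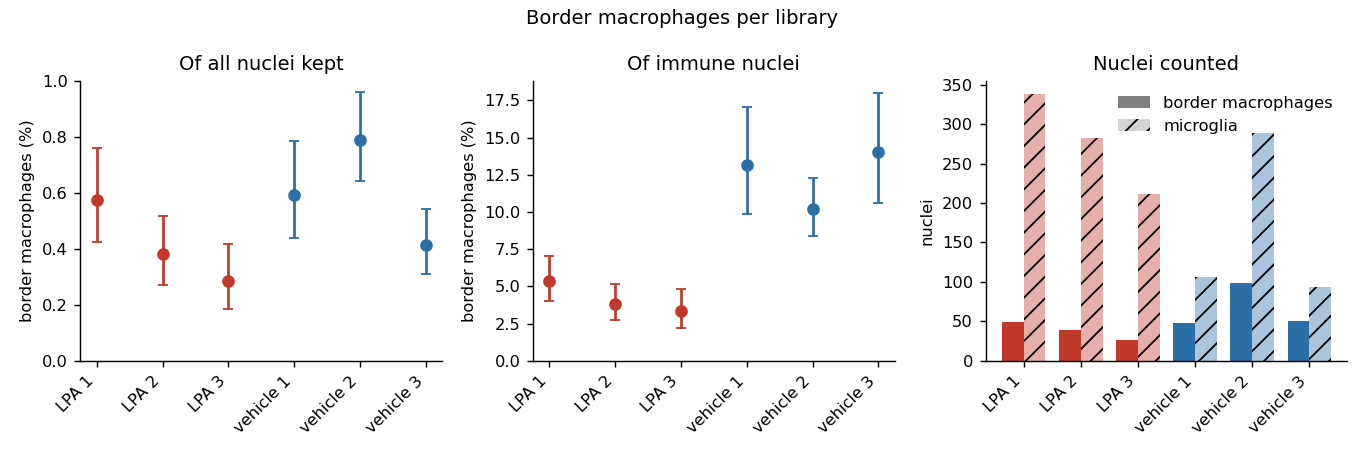
Border macrophages in each library as a percent of all nuclei kept (left) and of immune nuclei (middle) with exact 95% binomial intervals, and the counts of border macrophages and microglia (right). The groups overlap on the left, and in the middle the highest LPA-injected value of 5.36% lies below the lowest vehicle-injected value of 10.2%.

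The limit on Spp1 and Gpnmb, genes higher in activated cells, removed few nuclei from either group. It left out 3, 2 and 1 F13a1 nuclei in LPA 1, 2 and 3 and 2, 1 and 0 in vehicle 1, 2 and 3, or 4.78 ± 1.04% and 1.67 ± 2.08% of F13a1 nuclei (n = 3, exact permutation p = 0.2). At a limit of 3 counts, the 0 of 51 in vehicle 3 allows a share of up to 5.88%. A Lyve1 UMI was seen in 6 of 49, 15 of 39 and 10 of 26 members of LPA 1, 2 and 3 and in 12 of 48, 27 of 98 and 15 of 51 of vehicle 1, 2 and 3, with mean shares of 29.7 ± 15.1% and 27.3 ± 2.21% (n = 3, exact permutation p = 1). LPA 1 was the lowest of all 6 libraries and LPA 2 and LPA 3 the highest. Members with a class II UMI were 6.06 ± 3.63% and 2.67 ± 2.31% (n = 3, exact permutation p = 0.5), resting on 7 and 6 nuclei.

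In the summed UMIs, no gene was called between LPA- and vehicle-injected border macrophages. With calls set at an edgeR adjusted p under 0.05 and a log2 change of 0.25 or more, 0 of 6832 genes were called. At an unadjusted p under 0.05 there were 411 genes (6.02%) on the higher and 331 (4.84%) on the lower side. That balance turned without Scrublet-called nuclei, with 82 higher and 184 lower of 2708. In all 10.9% of genes had such a p, against 6.48% of 5740 with Siglech-positive members left out and 4.79% of 3591 below an upper UMI limit. DESeq2 called 7, limma with voom 0, and leaving out LPA 3, the shallowest library, gave 7. The genes below, the 3 of lowest p in each direction, were not called. Apobec1, an RNA-editing cytidine deaminase, was at 143, 88.8 and 116 CPM in the LPA-injected libraries and 32.8, 35.4 and 40.3 CPM in the vehicle-injected libraries (log2 fold change 1.71 ± 0.29 s.e., n = 3 per group, edgeR adjusted p = 0.0572). All 3 LPA-injected libraries lay above all 3 vehicle-injected ones. Itgam, the integrin CD11b, was at 68.2, 92.7 and 98.5 CPM in the LPA-injected libraries and 18.4, 24.7 and 23.5 CPM in the vehicle-injected libraries (log2 fold change 1.89 ± 0.32 s.e., n = 3 per group, edgeR adjusted p = 0.0572). Tbxas1, thromboxane synthase, was at 322, 305 and 314 CPM in the LPA-injected libraries and 75.8, 150.2 and 158 CPM in the vehicle-injected libraries (log2 fold change 1.31 ± 0.25 s.e., n = 3 per group, edgeR adjusted p = 0.0851). The groups did not overlap for either gene. Nor did those of all 3 genes without Scrublet-called nuclei, at log2 fold changes of 1.56 ± 0.37, 2.06 ± 0.49 and 1.22 ± 0.33. The 3 genes were picked for their low p, and the remaining nuclei are part of the same libraries. Their separation therefore came with the choice and is a description, and the share of all genes without overlap was not counted.

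Of the lower genes, Bnc2, a zinc-finger factor of fibroblasts and on the meningeal fibroblast list, was at 21.7, 23.2 and 0 CPM in the LPA-injected libraries and 107, 175 and 114 CPM in the vehicle-injected libraries (log2 fold change -2.83 ± 0.42 s.e., n = 3 per group, edgeR adjusted p = 0.0511). Of the 12 fibroblast genes 7 were tested, all 7 had a log2 fold change below 0, and 3 had an unadjusted p under 0.05 in edgeR. The part of fibroblast transcripts in the value of Bnc2 was not tested. Without Scrublet-called nuclei Bnc2 was under the filter, and 528 CPM in vehicle 2 stood far from 66.5 and 18.6 CPM in vehicle 1 and 3. The mitochondrial transcripts mt-Co3 (log2 fold change -1.47 ± 0.25 s.e., n = 3 per group, edgeR adjusted p = 0.0572) and mt-Atp6 (log2 fold change -1.64 ± 0.29 s.e., n = 3 per group, edgeR adjusted p = 0.0572) were the others, in nuclei limited to 1% of mitochondrial UMIs. With called nuclei left out their log2 fold changes were -0.07 ± 0.47 and -0.76 ± 0.51 and the groups overlapped.

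**Figure D5:**
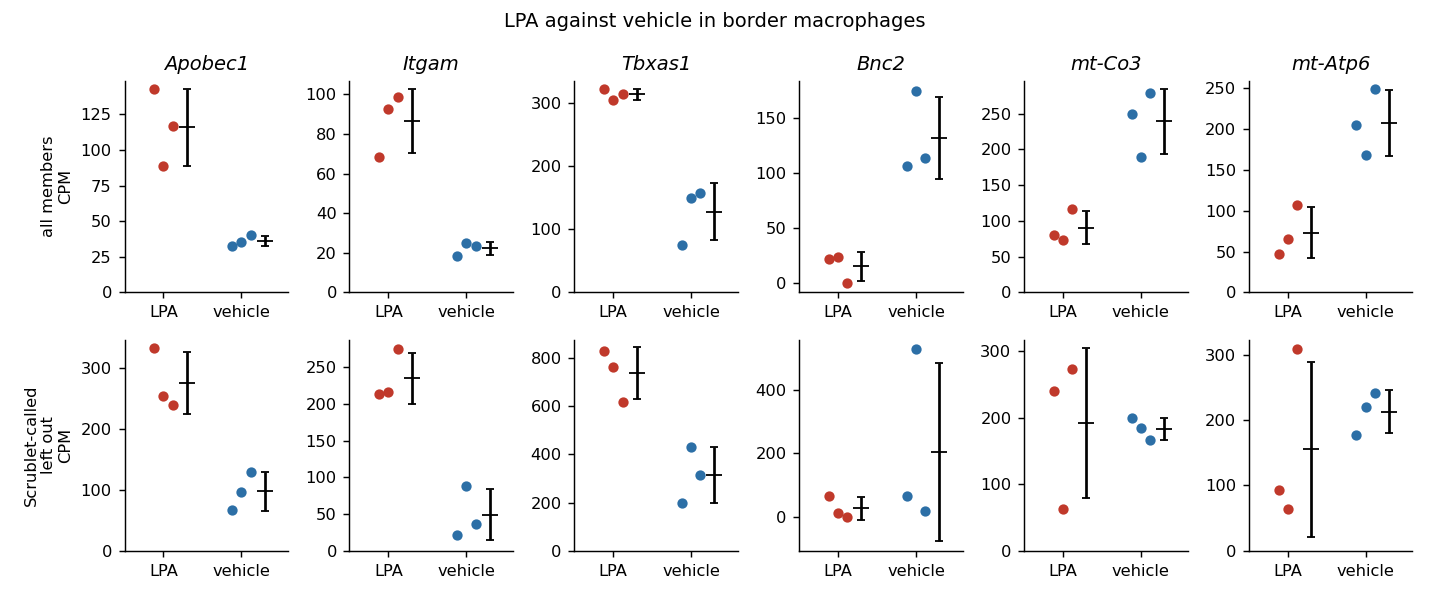
CPM of the 6 genes of lowest p in border macrophages of LPA- and vehicle-injected brains, 1 point per library with mean ± s.d. (n = 3), over all members (top) and without Scrublet-called nuclei (bottom); none was called. Apobec1, Itgam and Tbxas1 were separated in both rows, while mt-Co3 and mt-Atp6 overlapped in the bottom row. The genes were picked for low p in the top row, and the bottom row uses part of the same nuclei, so separation is a description.

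Macrophage transcripts summed to more in the LPA-injected libraries, which also held a smaller part of their member UMIs in Scrublet-called nuclei. That part was 70.5%, 60.8% and 67.4% in LPA 1, 2 and 3 and 74.7%, 74.1% and 76.0% in vehicle 1, 2 and 3. Core border macrophage genes summed to 4574, 4039 and 5931 CPM in the LPA-injected libraries and 2610.2, 3514 and 3164 CPM in the vehicle-injected libraries, with 13 of 15 tested genes above 0 and a median log2 fold change of 0.49 against -0.02 over all genes. Pan-myeloid genes summed to 3521, 4101 and 4954 CPM in the LPA-injected libraries and 2182, 3162 and 2762 CPM in the vehicle-injected libraries (median 0.55). The groups did not overlap on either list, and no gene of either was called. Such separation was not particular to these lists. The sums of the scavenger, lysosome, iron and growth factor lists were also higher without overlap, and those of the glucocorticoid and LPA lists lower. In microglia too the LPA-injected libraries were higher without overlap, at means of 643 and 447 CPM for the core list and 3280.3 and 2527 CPM for the pan-myeloid list. Oligodendrocyte precursor genes in the border macrophages summed to 2117 ± 465 CPM in LPA-injected and 3215 ± 114 CPM in vehicle-injected libraries, higher in all 3 vehicle-injected libraries. Without Scrublet-called nuclei the core list stood at 12255, 10820.5 and 11829.6 CPM in the LPA-injected libraries and 7405, 10947 and 9703 CPM in the vehicle-injected libraries, where vehicle 2 lay above LPA 2. The pan-myeloid list then overlapped as well, with vehicle 2 at 8472 CPM above LPA 1 at 7929 CPM. So did the oligodendrocyte precursor list, with LPA 1 at 2656 CPM above vehicle 3 at 1669.7 CPM. The part of transcripts from other cells in these sums was not tested. Cd163 and Lyve1 had log2 fold changes of 0.18 ± 0.28 and 0.07 ± 0.49, neither called.

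Of the microglial genes, 7 of 11 tested were on the higher side at an unadjusted p under 0.05 in edgeR and 1 on the lower. Their median log2 fold change was 0.68 (0.67 without Scrublet-called nuclei), and none was called. Summed over all 20 listed microglial genes the groups overlapped, at 3289 ± 146 CPM in LPA-injected and 3158 ± 303 CPM in vehicle-injected libraries. The other lists held no called gene either. Scavenger and endocytic receptors had 11 of 12 tested genes above 0 (median 0.45), microglial activation genes 9 of 13 tested genes above 0 (median 0.33), lysosome genes 15 of 18 tested genes above 0 (median 0.18) and interferon response genes 6 of 6 tested genes above 0 (median 0.81). Glucocorticoid response genes had 3 of 12 tested genes above 0 (median -0.12), and summed to 1335 ± 72.2 CPM in LPA-injected and 1626 ± 87.3 CPM in vehicle-injected libraries. Without Scrublet-called nuclei these sums overlapped, with LPA 3 at 2434 CPM above vehicle 1 at 2173 CPM. LPA receptors and metabolism genes had 0 of 4 tested genes above 0 (median -0.36). With called nuclei left out, the medians were 0.31 for scavenger receptors, 0.32 for activation genes, 0.14 for lysosome genes and -0.44 for glucocorticoid genes, while interferon genes had 1 tested gene (0.46) and LPA genes 2 (median -0.88). Complement and Fc receptor genes turned from a median of 0.20 to -0.26.

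In microglia of the same libraries, with the same limits, 174 of 12104 genes (1.44%) were called between LPA and vehicle, 96 higher and 78 lower, and 11 without Scrublet-called nuclei. These shared the libraries of the border macrophages, and the microglia sums were deeper (484644 to 2606337 UMIs). Of the genes above, Tbxas1 was higher in LPA-injected microglia (log2 0.87 ± 0.13, edgeR adjusted p = 0.00313) and Bnc2 lower (-1.39 ± 0.20, edgeR adjusted p = 0.00263), whereas Itgam was at 0.20 ± 0.15 and Apobec1 at 0.61 ± 0.22, neither called. Bnc2 was 1 of 6 meningeal fibroblast genes called lower in LPA-injected microglia, where all 10 tested were below 0, and the part of fibroblast transcripts was not tested. Without Scrublet-called nuclei no fibroblast gene was called, with Bnc2 at -1.18 ± 0.77 (edgeR adjusted p = 0.713) and Tbxas1 at 0.54 ± 0.18 (edgeR adjusted p = 0.364). The test of the difference itself, the interaction of cell type and injection, called 0 of 9927 genes with edgeR, with 503 at an unadjusted p under 0.05. For Itgam the LPA effect was larger in border macrophages than in microglia by 1.69 ± 0.34 on the log2 scale, with an edgeR adjusted p of 0.279. At this depth no gene's LPA effect was called as different between border macrophages and microglia.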

How the data were processed

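The authors sequenced droplet 3′ libraries of sorted nuclei and made the deposited UMI counts with Cell Ranger 4.0.0 on a pre-mRNA mm10 reference, so intronic reads were counted, per the labels and their processing notes. The deposited files hold raw counts for 63383 barcodes and 32285 genes. Barcodes were kept at 300 genes or more and at most 1% of mitochondrial UMIs. Scrublet (scanpy 1.11.5) was run on each library (expected rate 0.08), and called nuclei stayed in the main sums and were left out in an alternative. UMIs were summed per library and cell type and tested with edgeR 4.0.16 (TMM, filterByExpr, glmQLFit, glmQLFTest) in R 4.3.3. Alternatives used DESeq2 1.42.0 and limma 3.58.1. Genes that chose the nuclei were described and not tested. Shares were compared with two-sided exact permutation tests (scipy 1.17.1), in which 3 against 3 libraries cannot go below p = 0.1. Statistics scripts were tested on simulated data. Named genes were Lyve1, the genes that chose the nuclei, the 10 of lowest p called in each direction, the 3 of lowest p where none was called, and from each list up to 6 of the highest CPM plus any called. The members, lists and tests were chosen with earlier results of these data known, and the comparison with Spp1 and Gpnmb nuclei was added after the data were seen. Summed depths per library were 121675 to 637627 UMIs for border macrophages and 484644 to 2606337 for microglia. Replicate libraries differed beyond counting noise (chi-square per degree of freedom 1.76 to 3.68), so each counted as 1 sample. Some genes are not reported here by name.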

Additional observations from a re-analysis of the deposited data

How the results depend on the processing

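Border macrophages against microglia gave 268 calls, 464 with no filter on low counts, and stayed within 1.5 times in the other 20 settings. LPA against vehicle in border macrophages gave 0 calls, but 2 with F13a1 at 2 UMIs or more, 2 with no limit on Spp1 and Gpnmb, 7 with DESeq2, 77 with no filter, 1 with RLE size factors, 1 with a sex term, and 0 to 7 when 1 library was left out, the 7 without LPA 3. In microglia the 174 calls became 11 without Scrublet-called nuclei (added after the data were seen), 86 with DESeq2, 453 with no filter and 63 to 300 when any 1 of the 6 libraries was left out (63 without LPA 2, 300 without vehicle 3). The interaction called 0 genes, 16 with no filter and 0 to 2 when 1 library was left out (2 without LPA 1 and 2 without LPA 2). Border macrophages against Spp1 and Gpnmb nuclei gave 198, and 101 to 162 when 1 library was left out (101 without LPA 2). Apobec1 passed the threshold in 4 of 19 alternatives, Itgam in 1 of 19, Tbxas1 in 2 of 19, mt-Co3 and mt-Atp6 in 3 of 19 each and Bnc2 in 6 of 17. The difference in the share with Lyve1, 2.40 percentage points higher in LPA-injected libraries, was -0.631 without called nuclei, -1.09 after thinning, and -1.97 to 11.1 when 1 library was left out. The difference in the share of F13a1 nuclei over the Spp1 and Gpnmb limit was 3.11 percentage points, higher in LPA-injected libraries. It was 0.685 with Siglech-positive members left out and 1.23 below the upper UMI limit. With F13a1 at 2 or at 5 UMIs or more it was 4.30 and 3.90, without overlap (exact permutation p = 0.1 for each). The cause of these changes was not tested. The share among nuclei kept was lower with LPA, at -0.185 percentage points. It was -0.00674 after thinning, which also took F13a1 at 2 UMIs or more and only nuclei with at least 2000 UMIs. When 1 library was left out it ran from -0.0898 without vehicle 2 to -0.278 without vehicle 3. The share among immune nuclei, -8.30, ran from -11.5 (the same thinning) to -7.14 over its 14 alternatives.

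The labels do not say whether replicate numbers pair the samples. Same-numbered libraries' deviations correlated at 0.148, 0.00223 and 0.00989 in border macrophages and 0.0921, 0.0777 and 0.00163 in microglia. No values of differently numbered libraries were set beside these, so they do not show whether a litter, day or batch was shared. With the replicate block LPA against vehicle gave 0 calls in border macrophages and 201 in microglia. Without the replicate block, which in the comparisons of cell types is the library, there were 252 calls against microglia and 245 against Spp1 and Gpnmb nuclei.

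With 26 to 98 nuclei a library, low genes could not be tested, and 72.0% of the UMIs came from members scored as doublets. 3 libraries a group limit every comparison of LPA and vehicle.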
